A study of Mus musculus with 289 samples.

Results

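The genes described here are the adult haemoglobin genes Hba-a1, Hba-a2, Hbb-bs and Hbb-bt and the erythroid gene Alas2, which are 5 of the 54976 gene symbols found in the count tables of the study. They were chosen by name, with their measured levels in these samples already known, so every level and difference below is a description and none was tested. The samples were single astrocytes drawn with a pipette from the cerebral cortex of adult mice that express Cas9, each made into its own Smart-seq2 library of polyadenylated RNA. Mice had been injected with Mok-LV, an astrocyte-specific lentivirus, carrying guide RNAs (gRNAs) against Sox9, against Trps1, against both, or a control gRNA. Cells without a gRNA were also collected, but the sources used here do not say whether their animals had any virus, nor do they state the strain, sex, age in weeks or any perfusion of the animals. In-slice controls, made by lowering a pipette into the slice without taking a cell, give the background of batches 2 to 5. Batch 1 has none.

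Of 289 labelled samples, 254 had values: 242 astrocytes and 12 in-slice controls. Another 35, labelled batch 4, were not analysed here. Batch 1 held 4 cells with both gRNAs, 10 with a control gRNA and 31 without a gRNA, not split by day. Its control gRNA cells are labelled days 8 to 16, and its cells with both gRNAs only later days, all before day 21. These day labels rise almost cell by cell in the order the samples are listed, and whether they are true days is not known. As labelled, the gRNA and the day cannot be told apart in batch 1. In batch 2 there were 8 cells with both gRNAs at day 21, control gRNA cells at day 7 (8 cells) and day 21 (7 cells), and 1 in-slice control of day 7. Batch 3 held 14 cells with both gRNAs and 21 with the Sox9 gRNA, all of day 7, as well as 6 cells without a gRNA and 4 in-slice controls. Batch 4 held 16 cells with the Sox9 gRNA, 13 with both gRNAs, 15 with a control gRNA and 2 in-slice controls, all of day 21, and 15 cells with the Trps1 gRNA of day 7. In batch 5 there were 21 cells with the Sox9 gRNA, 30 with the Trps1 gRNA, 23 without a gRNA and 5 in-slice controls, the gRNA cells and the in-slice controls being of day 21. The labels name no animal, so each combination of gRNA, day and batch was treated as 1 pool, cells were not taken as replicates, and comparisons stayed within a batch.

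Haemoglobin carries oxygen in red blood cells and is built from a pair of alpha chains and a pair of beta chains around haem groups. Young red cells that have just entered the blood still hold globin mRNA, which makes globin one of the most abundant transcripts of whole blood, and low globin mRNA has also been described in neurons and glia. Alas2 is the erythroid form of the enzyme that starts haem synthesis. Most other cells use Alas1 for that step.

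The members of each chain pair lie close together and are nearly the same gene. Hba-a1 (ENSMUSG00000069919, chr11:32283511-32284465) and Hba-a2 (ENSMUSG00000069917, chr11:32296489-32297298) are on the plus strand, and Hbb-bs (ENSMUSG00000052305, chr7:103826534-103828096) and Hbb-bt (ENSMUSG00000073940, chr7:103812524-103813996) are on the minus strand, all in GRCm38 with 3 exons each. Alas2 (ENSMUSG00000025270, chrX:150547375-150570638, plus strand) has 11 exons. The coding sequences of Hba-a1 and Hba-a2, of 429 bases each, differ at 1 base (C381T, Hba-a1 base first, counted from 1 at the start codon), an identity of 99.8%. The only coding difference between Hbb-bs and Hbb-bt over 444 bases is C417T. The 60 bases around each difference, from the GRCm38 genome and the GENCODE annotation, show what a read would have to cover to be told apart, with the differing base in capitals.
Hba-a1: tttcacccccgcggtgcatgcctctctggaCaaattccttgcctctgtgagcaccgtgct
Hba-a2: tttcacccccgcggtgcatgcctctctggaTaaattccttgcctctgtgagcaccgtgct
Hbb-bs: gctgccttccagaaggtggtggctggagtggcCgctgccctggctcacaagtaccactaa
Hbb-bt: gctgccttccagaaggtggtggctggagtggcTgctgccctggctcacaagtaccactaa
Of all runs of 50 bases in the coding sequence, 87.1% were shared by the alpha pair and 92.9% by the beta pair. Over the whole transcripts, with their end regions, 67.5% of such runs of Hba-a1 and 86.9% of those of Hba-a2 also occurred in the partner, as did 65.8% for Hbb-bs and 58.3% for Hbb-bt. The sources used here do not state how reads that match both members of a pair were counted. The split within a pair is therefore uncertain, and the 4 chains were mainly summed.

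The promoters of the 5 genes are shown as a description of sequence only: the 150 bases before each transcription start as given by RefSeq for GRCm38.p6. Capitals mark the motifs that were searched on both strands, the GATA factor motif AGATAA, the CACCC box, the CCAAT box and the TATAA box.
Hba-a1 (chr11:32283522-32283671, plus strand): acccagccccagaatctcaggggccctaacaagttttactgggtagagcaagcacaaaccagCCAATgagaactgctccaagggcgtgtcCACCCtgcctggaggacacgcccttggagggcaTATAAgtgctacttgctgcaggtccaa
Hba-a2 (chr11:32296342-32296491, plus strand): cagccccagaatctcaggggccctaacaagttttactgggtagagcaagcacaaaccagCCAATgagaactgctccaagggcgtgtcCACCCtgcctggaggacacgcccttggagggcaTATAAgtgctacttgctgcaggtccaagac
Hbb-bs (chr7:103827929-103828078, minus strand): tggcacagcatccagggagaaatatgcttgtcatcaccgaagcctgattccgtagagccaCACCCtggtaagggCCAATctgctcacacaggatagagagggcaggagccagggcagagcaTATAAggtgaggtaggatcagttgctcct
Hbb-bt (chr7:103813924-103814073, minus strand): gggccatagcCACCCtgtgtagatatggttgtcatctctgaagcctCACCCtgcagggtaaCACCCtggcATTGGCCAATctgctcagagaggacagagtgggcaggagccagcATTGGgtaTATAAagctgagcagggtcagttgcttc
Alas2 (chrX:150547267-150547416, plus strand): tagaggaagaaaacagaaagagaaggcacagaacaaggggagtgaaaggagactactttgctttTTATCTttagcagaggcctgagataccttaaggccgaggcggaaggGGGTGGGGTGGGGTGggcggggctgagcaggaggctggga
The TATAA and CCAAT letters were found in 4 of the 5 windows, those of the globin genes, and CACCC in 5 of the 5. AGATAA was found in 1 of the 5, as TTATCT in the Alas2 window. The marked letters in the Alas2 window are all on the opposite strand, and in the Hbb-bt window ATTGG and CCAAT stand directly next to each other. Among 32851 mouse promoter windows of the same length, AGATAA occurred in 5.65%, CACCC in 37.4%, CCAAT in 24.5% and TATAA in 14.2%. These are matches of letters and do not show that a factor was bound.

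Astrocyte libraries held 15959 to 4656612 reads in genes (median 1094502) and in-slice controls 341394 to 2299609. Levels are given as CPM, the reads of a gene per 1000000 reads counted to any gene. The libraries carry no molecular identifiers, so the 95% exact intervals below cover counting error only. The transcript of a gene cut by Cas9 can still be counted, and the targeted genes were not lower in every pool: Sox9 stood at 189 CPM in Sox9 gRNA cells and at 177 CPM in control gRNA cells of batch 4, and at 233 CPM in Sox9 gRNA cells and 309 CPM in cells without a gRNA of batch 5. In batch 3 Sox9 was at 1303 CPM in Sox9 gRNA cells and 382 CPM in cells without a gRNA. Trps1 stood at 57.6 CPM in Trps1 gRNA cells and 91.9 CPM in cells without a gRNA of batch 5, and at 103 CPM in Trps1 gRNA cells of day 7 and 3.35 CPM in control gRNA cells of batch 4. Summed over 16 astrocyte markers, batch 4 libraries ran from 44.4 to 41134 CPM in cells of the Sox9 gRNA, from 16.3 to 9257 CPM with both gRNAs, from 21.4 to 32728 CPM with the control gRNA and from 104 to 1245 CPM in the in-slice controls, so the lowest cells of each of these pools stood below the in-slice controls.

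Globin reads were found in many libraries and were abundant in few. A read of at least 1 chain was found in 140 of 242 astrocytes (57.9%) and in 4 of 12 in-slice controls. No chain was read in 110 libraries, 1 chain in 62, 2 chains in 40, 3 chains in 20 and all 4 chains in 22. Batches 4 and 5 supplied 116 of the libraries with a globin read, out of 140, and batches 1 to 3 supplied 28 out of 114. Of 180382 globin reads in the study, 166834 (92.5%) came from 10 Sox9 gRNA cells of batch 4 whose titles begin with 21S2. The labels give no meaning for that title series, which is set apart below from series 21S, the other 6 Sox9 gRNA cells of batch 4.

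**Figure D1:**
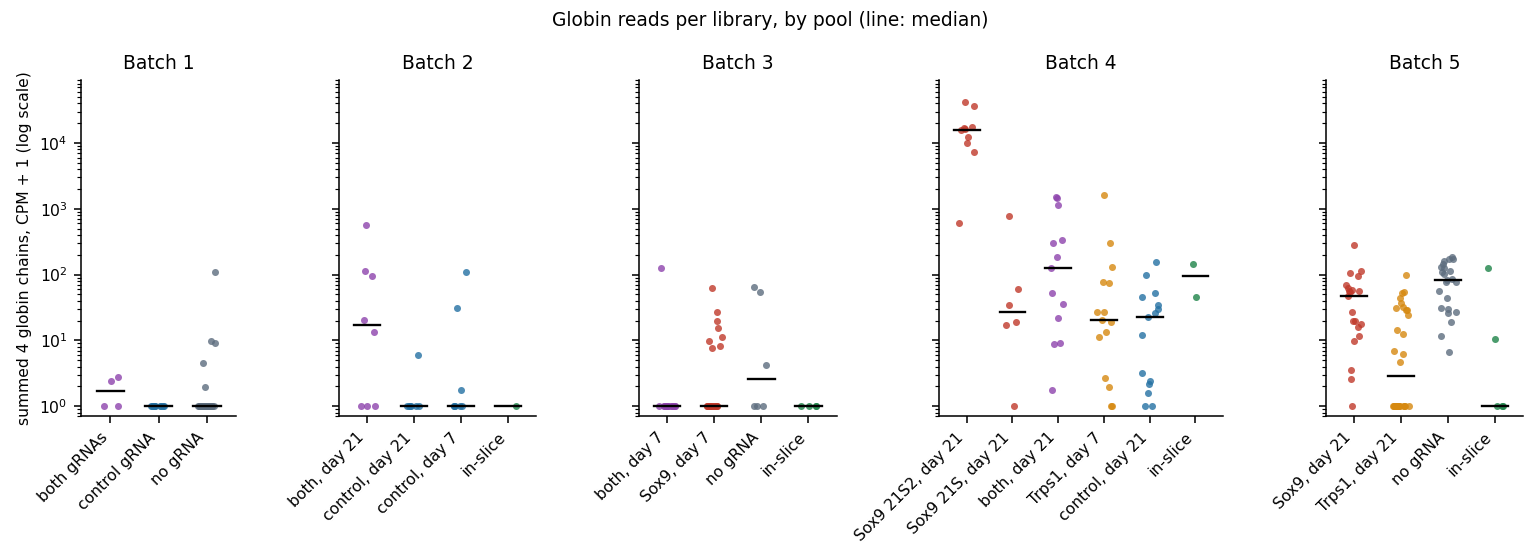
Summed level of the 4 globin chains (CPM + 1, log scale) in each library, by pool and batch, with a line at the median of each pool. The series 21S2 libraries of batch 4 run from 600.2 to 42256 CPM, and the highest other library stands at 1603 CPM.

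In batch 4 the summed globin level was 9561 CPM (95% interval 9515 to 9607) in cells with the Sox9 gRNA, 335 CPM with both gRNAs, 73.2 CPM in the Trps1 gRNA cells of day 7, and 39.6 CPM (36.8 to 42.6) in control gRNA cells. The log2 ratio of CPM + 5 against the control gRNA cells was 7.74 for the Sox9 gRNA, 2.93 for both gRNAs and 0.81 for the Trps1 gRNA, whose cells also differ from the control cells in day. These ratios share the same control cells. A read was found in 15 of 16, 13 of 13 and 13 of 15 of these cells, and in 13 of 15 control gRNA cells, so the pools differed far more in amount than in how many cells held a read. After every library was thinned to 100000 reads, the counts with a read were 15 of 16, 11 of 13 and 11 of 15, against 10 of 15 control gRNA cells.

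The Sox9 gRNA value was carried by series 21S2. Its 10 libraries held 600.2, 7415, 10047, 12441, 15855, 16184, 16852, 17475, 36418 and 42256 CPM of globin. The 6 libraries of series 21S held 0, 16.04, 18.2, 33.0, 59.5 and 788 CPM, and the 15 control gRNA libraries ran from 0 to 152 CPM with a median of 21.9 CPM. Series 21S2, set apart after its globin level was seen, did not overlap with the control gRNA cells. Of the 6 libraries of series 21S, 5 lay inside the range of the control gRNA cells. Pooled, series 21S2 reached 15055 CPM (14983 to 15127), a log2 ratio of 8.40 against the control gRNA cells, and series 21S reached 64.7 CPM (58.7 to 71.3), a ratio of 0.64. Library 21S_10 held 280 of the 415 globin reads of series 21S, and without it the series stood at 22.3 CPM, a ratio of -0.71, so 1 library set the size and sign of that value. Without the highest cell of each pool the ratio for all Sox9 gRNA cells was 7.96. Read totals do not set the series apart, at 650264 to 1617703 in series 21S2, 355477 to 1763165 in series 21S and 325744 to 2215814 in the control gRNA cells.

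Each of the 4 chains and Alas2 was past a log2 ratio of 1 in the Sox9 gRNA pool (5 of 5 members higher). Of 11539 genes at 5 CPM or more in the higher pool, 23.2% were as much higher and 40.7% as much lower, and since the members were chosen from this contrast their count adds nothing to it. Hbb-bs, the main adult beta chain, ran from 32.1 to 23681 CPM in series 21S2 (median 9125), from 0 to 127 CPM in series 21S (median 0.444) and stood at 30.5 CPM in the control gRNA pool. Hba-a1, an alpha chain, ran from 447 to 9184 CPM in series 21S2 (median 3164) and from 0 to 113 CPM in series 21S, against 5.44 CPM in the control gRNA pool. For its near copy Hba-a2 the values were 116 to 4976 CPM in series 21S2 and 0 to 163 CPM in series 21S, against 0.825 CPM in the control gRNA pool. Hbb-bt, the second beta chain, was at 4.95 to 4770 CPM in series 21S2 and was read in 1 of 6 libraries of series 21S (385 CPM), against 2.86 CPM in the control gRNA pool. Per cell, the control gRNA libraries ran from 0 to 152 CPM for Hbb-bs and from 0 to 44.1 CPM for Hba-a1. They ran from 0 to 8.77 CPM for Hba-a2 and from 0 to 24.0 CPM for Hbb-bt. The lowest series 21S2 values of Hbb-bs and Hbb-bt lay inside these control ranges. The ranges of series 21S2 and 21S were apart for Hba-a1, and for Hba-a2, Hbb-bs and Hbb-bt they overlapped through library 21S2_7 alone. The series were split after their globin levels were seen, so this separation adds nothing to those levels. How many of all genes had ranges apart in this way was not counted. The pooled ratios of the 4 chains against control were 7.91, 8.29, 8.21 and 7.59 for series 21S2, and -1.19, 1.33, 1.51 and 1.75 for series 21S, in that order of genes. In series 21S alone, 14.3% of genes were past the threshold upwards and 66.3% downwards. Library 21S_10 held all 137 of the series' Hbb-bt reads and 58 of its 74 Hba-a2 reads. Without it Hbb-bs stood at 3.798 CPM, Hba-a1 at 15.9, Hba-a2 at 2.64 and Hbb-bt at 0 CPM in the 5 remaining libraries of series 21S, with log2 ratios to control of -2.01, 0.998, 0.39 and -0.65. Hbb-bs was thus lower than in control gRNA cells with or without that library, while the direction of Hbb-bt turned on it.

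**Figure D2:**
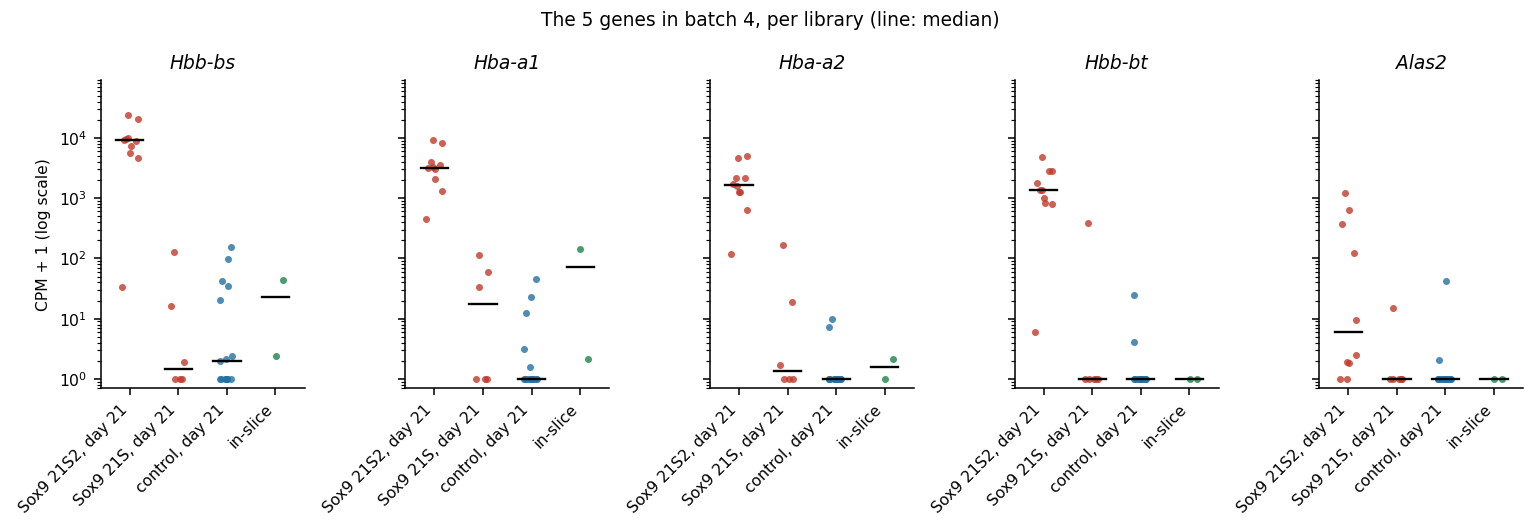
Level of each of the 5 genes (CPM + 1, log scale) per library of batch 4, with a line at the median of each pool. Shown are series 21S2, series 21S, the control gRNA cells and the in-slice controls. Cells with both gRNAs or the Trps1 gRNA are not shown. The 4 globin chains are read in 10 of 10 series 21S2 libraries, and Alas2 in 8 of 10.

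Per kilobase of transcript, Hbb-bs was the most abundant chain in series 21S2 at 13626 CPM per kb, followed by Hba-a1 at 4674, Hba-a2 at 3113, Hbb-bt at 2143 and Alas2 at 119 CPM per kb. The control gRNA cells had 48.6 CPM per kb of Hbb-bs, 7.79 of Hba-a1, 1.49 of Hba-a2, 4.07 of Hbb-bt and 1.19 of Alas2. The reads of the 2 alpha genes came to 0.49 of those of the 2 beta genes per kilobase in series 21S2, and to 0.18 in the control gRNA cells.

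The cells with both gRNAs were the next highest pool. Their summed level ran from 0.764 to 1522 CPM per cell with a median of 127 CPM, against 0 to 152 CPM and a median of 21.9 CPM in control gRNA cells, and the ranges overlapped. The 3 of these libraries that share a first column header tag with series 21S2, described below, had a median of 1136 CPM. The 10 others ran from 0.764 to 1522 CPM with a median of 43.2 CPM. Hbb-bs was at 162 CPM with both gRNAs and 30.5 CPM in control gRNA cells, Hba-a1 at 88.4 and 5.44 CPM, Hbb-bt at 48.1 and 2.86 CPM, and Hba-a2 at 36.3 and 0.825 CPM. Alas2 was at 25.98 CPM with both gRNAs, nearly all of it from 1 cell, and 2.42 CPM in control gRNA cells. Of 11524 genes tested, 19.5% were past the threshold upwards. All 5 members were past it, but Hba-a2, Hbb-bt and Alas2 were under 5 CPM in control gRNA cells and passed the filter through the cells with both gRNAs alone. The Trps1 gRNA cells of day 7 had 0 to 1603 CPM per cell and a median of 19.6 CPM, below the median of the control gRNA cells although their pooled level was higher. Without the highest cell of each pool their log2 ratio to control was 0.16, so 1 cell carried most of it. Hba-a2 was the 1 member past the threshold there, at 10.8 CPM in Trps1 gRNA cells and 0.825 CPM in control gRNA cells. It passed the filter through the Trps1 gRNA cells alone. Hba-a1, Hbb-bs and Hbb-bt also passed the filter, with log2 ratios of 0.90, 0.40 and 0.51. Of all genes tested there, 28.7% were past the threshold upwards, so 1 member past it is no result about the members.

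The pipette background of batch 4 was of the same order as the control gRNA cells. Its 2 in-slice controls held 143 and 44.7 CPM of globin, 87.7 CPM pooled (73.8 to 104). The first was 99.0% Hba-a1 by reads, and the second was mostly Hbb-bs. Hbb-bt and Alas2 were not read in either, which allows up to 1.88 CPM of each over both. Against these in-slice controls the summed log2 ratio was 6.69 for the Sox9 gRNA cells and -0.41 for series 21S alone.

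The proportions of the chains were alike in most series 21S2 libraries and scattered elsewhere. Outside library 21S2_7, the alpha genes took 26.6% to 36.5% of globin reads in the 9 other series 21S2 libraries (32.8% over all of them). Hba-a1 made up 62.0% to 70.6% of alpha reads and Hbb-bs 76.5% to 89.9% of beta reads in the same 9 libraries. Library 21S2_7, the lowest of the series, was 93.8% alpha, with 723 Hba-a1, 188 Hba-a2, 52 Hbb-bs and 8 Hbb-bt reads. Among the other batch 4 libraries with 50 or more globin reads, 19 in number, the alpha share ran from 0% to 100% with a median of 29.9%, close to that of series 21S2. Of these 19, 7 held all 4 chains, 4 held 1 chain only, and in 9 a single chain took at least 95% of the reads. Pooled over all 244 libraries other than series 21S2, the alpha share was 37.7% (36.9 to 38.5). Only 5 of the 19 held 500 or more globin reads, and in those the alpha share ran from 18.5% to 77.3%.

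**Figure D3:**
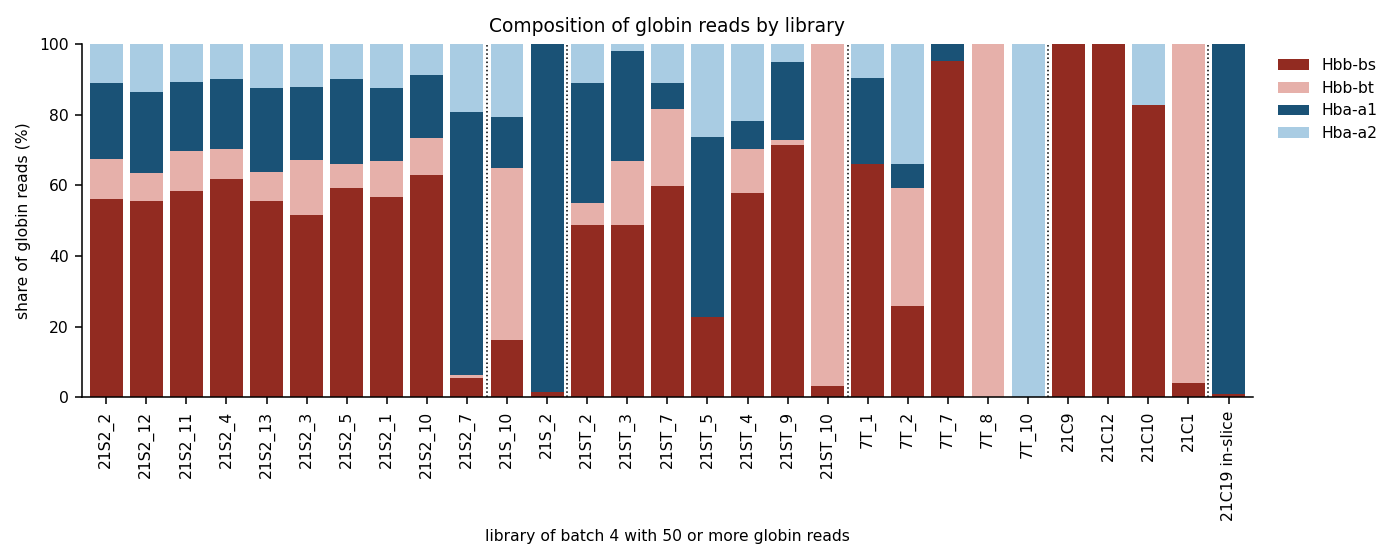
Share of globin reads from each chain (percent, stacked bars) in every batch 4 library with 50 or more globin reads. In 9 series 21S2 libraries the alpha share lies between 26.6% and 36.5%, while the bars of other libraries run from a single chain to all 4.

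Across the 9 libraries of series 21S2 other than 21S2_7, log2(CPM + 1) of Hba-a1 went with that of Hba-a2 at a Pearson correlation of 0.98, with that of Hbb-bs at 0.98, and Hbb-bs with Hbb-bt at 0.88. Over all 10 libraries of the series these values were 0.99, 0.90 and 0.99. In the other 51 batch 4 libraries they were 0.53, 0.49 and 0.44, and in 79 batch 5 libraries 0.046, 0.37 and 0.036, with no library left out of either set. These are descriptions over libraries of 1 series or 1 batch, with no test, and reads shared within a pair raise the value of that pair.

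The libraries highest in Alas2 were not those highest in globin. Its 3236 reads lay in 18 libraries, of which 9 held 10 or more reads, and 2688 (83.1%) were in series 21S2. In that series 5 cells held 10 or more Alas2 reads and 5 held none or 1. The highest, 21S2_13, had 1213 reads (1219 CPM) at a globin level of 16852 CPM, and 21S2_5 had 813 reads (646 CPM) at 12441 CPM. The library with most globin, 21S2_2 at 42256 CPM, had no Alas2 read, and 21S2_12, at 36418 CPM, had 1. The Pearson correlation of Alas2 with the globin sum on the log2(CPM + 1) scale was 0.20 over the 10 libraries of the series and -0.28 without 21S2_7, so its sign turned on 1 library. Outside the series, a cell with both gRNAs, 21ST_9, held 434 Alas2 reads (227 CPM) at a globin level of 183 CPM, and 2 of the 9 libraries with 10 or more Alas2 reads had no globin read: 21C6, a control gRNA cell of batch 4 with 43, and Sample63, a control gRNA cell of batch 1 with 41. None of the 12 in-slice controls held an Alas2 read.

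**Figure D4:**
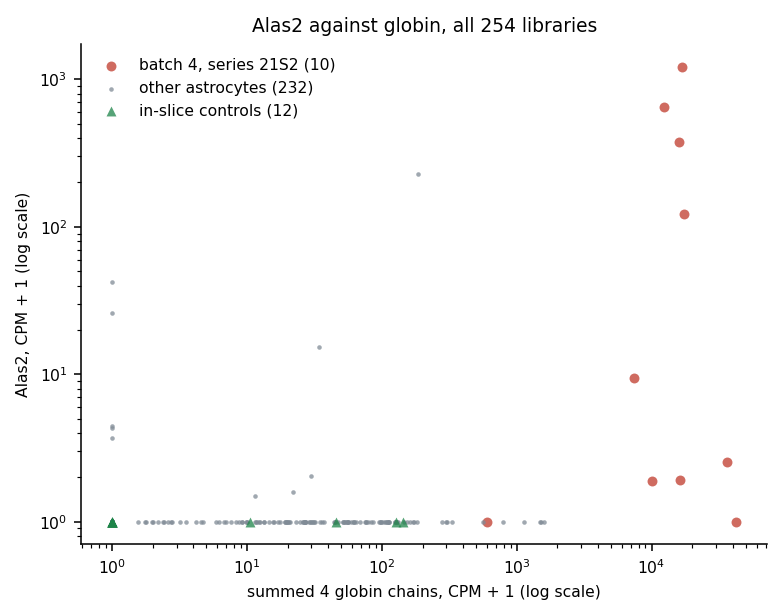
Alas2 level against the summed globin level (both CPM + 1, log scales) in all 254 libraries. Series 21S2 lies at the right from 600.2 to 42256 CPM of globin, with Alas2 between 0 and 1219 CPM.

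Genes of the red cell list were mixed in series 21S2: several that define the red cell membrane were low or not read, while others of the list were higher than in control gRNA cells. A gene at 5 CPM or more in 1 pool and not read in the other is past the threshold by construction, so counts over the genes that passed the filter are descriptions only, here and for the lists that follow. The red cell list held 25 genes with a row in batch 4, of which 14 passed the 5 CPM filter, with 5 higher, 1 lower and a median log2 ratio of 0.47 between series 21S2 and control gRNA cells. Over all 11655 genes tested in that comparison the median was -0.60, with 25.4% higher and 41.9% lower. Of the genes that define the red cell membrane, the anion exchanger Slc4a1 was at 8.12 CPM in series 21S2 (2 of 10 cells) and 4.78 CPM in control gRNA cells (3 of 15). Rhag was not read in series 21S2 and was at 0.055 CPM in control gRNA cells, and Gypc was not read in either. Epb42, a membrane skeleton protein, was at 1.08 CPM in series 21S2 and not read in control gRNA cells, and the ankyrin gene Ank1 was at 0.632 CPM in series 21S2 and 13.3 CPM in control gRNA cells. Among the genes past the threshold upwards were Epb41 (277 CPM in series 21S2 and 3.79 CPM in control gRNA cells), Cldn13 (45.8 CPM, from 1 cell, and 0), Mkrn1 (117 and 15.6) and Car2 (156 and 67.1). Epb41, Mkrn1 and Car2 are also used outside red cells, Car2 by oligodendrocytes. In series 21S alone the same list had 12 genes tested, 2 higher and 8 lower.

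The transcription factors that drive red cell development were near 0. Gata1, Tal1 and Nfe2 were not read in series 21S2, and Klf1 was at 0.271 CPM in 1 cell. Of 3 listed erythroid factors that passed the filter, 0 were higher and 3 lower than in control gRNA cells, with a median log2 ratio of -1.90. Lmo2, one of these, was not read in series 21S2 and stood at 35.0 CPM in control gRNA cells. At the depth of the pool a gene with no read is limited to 0.271 CPM.

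Haem synthesis showed both directions. With 9 of 12 listed genes tested, 3 were higher and 2 lower in series 21S2 than in control gRNA cells, at a median of 0.33. Higher were Urod (128 CPM in series 21S2 and 2.42 CPM in control gRNA cells) and Alad (94.4 and 5.33), enzymes of intermediate steps, and Slc25a37, the mitochondrial iron importer of red cell precursors (118 and 5.06). Lower were the mitochondrial carriers Slc25a39 (33.7 CPM in series 21S2 and 152 CPM in control gRNA cells) and Slc25a38 (24.6 and 69.5). Alas1, the form used by most cells, was at 58.3 CPM in series 21S2 and 50.03 CPM in control gRNA cells, and Fech, the last enzyme of the pathway, at 6.23 and 16.4 CPM.

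Haem breakdown and iron handling had 5 genes higher and 7 lower of 15 tested. The ferritin heavy chain Fth1 was at 4481 CPM in series 21S2 and 10819 CPM in control gRNA cells, the light chain Ftl1 at 168 and 821 CPM, and transferrin (Trf) at 333 and 868 CPM. The transferrin receptor Tfrc was at 116 CPM in series 21S2 and 23.8 CPM in control gRNA cells, and the iron exporter Slc40a1 at 71.6 and 5.44 CPM. Hmox1, which opens the haem ring, was at 36.5 CPM in series 21S2, from 2 cells, and 2.64 CPM in control gRNA cells. Of the other globin genes, the embryonic chains have no row in the batch 4 table. Myoglobin (Mb), cytoglobin (Cygb) and neuroglobin (Ngb) were at 0.722, 6.32 and 0.180 CPM in series 21S2 and at 5.77, 1.98 and 0 CPM in control gRNA cells.

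Several neutrophil markers and the collagens Col1a1 and Col1a2 were higher with globin in series 21S2, and their part in the result was not tested. Of 9 neutrophil markers with a row, 5 passed the filter, each through series 21S2 alone. The list's summed level was 400.2 CPM in series 21S2 and 6.93 CPM in control gRNA cells, and per library it ran from 0 to 1109 CPM (median 415) in series 21S2, 0 to 2.67 CPM in series 21S, 0 to 327 CPM with both gRNAs, 0 to 707 CPM in Trps1 gRNA cells of day 7 and 0 to 169 CPM in control gRNA cells. No neutrophil marker was read in the in-slice controls of the batch. S100a9 and S100a8, the calprotectin chains of neutrophils, were at 110 and 94.1 CPM in series 21S2, from 7 and 6 of 10 cells, while S100a9 was at 0.110 CPM and S100a8 not read in control gRNA cells. Camp and Cxcr2 were not read in series 21S2, and Mpo and Ltf had 1 read each. The blood monocyte list had 1 of 1 tested gene higher, the lymphocyte list 1 of 2 and the platelet list 1 of 2. For endothelium, 2 genes were higher and 1 lower of 3 tested, and its defining genes Cldn5, Pecam1 and Cdh5 were not read in series 21S2. The list of pericytes, smooth muscle and fibroblasts had 3 of 3 tested genes higher, the collagens Col1a1 and Col1a2 and the matrix protein Dcn, with a sum of 411 CPM in series 21S2 and 16.8 CPM in control gRNA cells, while the pericyte genes Rgs5 and Abcc9 were not read in series 21S2. Col3a1, a collagen of the same list, did not pass the filter. It was at 4.96 CPM in series 21S2 and 12.3 CPM in the other 51 batch 4 libraries, so not every collagen was higher.

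Other lists of cortical cells went the other way or were mixed in the same comparison. Microglia markers had 1 higher and 6 lower of 10 tested, neurons 1 and 6 of 10, oligodendrocytes 0 and 9 of 9, and astrocytes 5 and 2 of 16. The perivascular macrophage list had 1 of 1 tested gene higher. F13a1 counts in both the monocyte and the macrophage list.

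Genes read in more series 21S2 libraries than in other batch 4 libraries were ranked over 11837 genes, a ranking made after the values were seen. Col1a1, the main chain of bone and skin collagen, came first, with reads in 10 of 10 series 21S2 libraries and 11 of 51 others (280 and 7.92 CPM). Col1a2, its partner chain, was read in 9 of 10 and 8 of 51 (111 and 2.33 CPM), and Spp1, the secreted protein osteopontin, in 10 of 10 and 15 of 51 (460.2 and 11.4 CPM). The members Hbb-bt, Alas2, Hba-a2, Hba-a1 and Hbb-bs stood at ranks 3, 7, 14, 38 and 214 of the same order. Series 21S2 was set apart after its globin level was seen, so these ranks add nothing to that level. S100a9 was read in 7 of 10 and 1 of 51 (110 and 0.0321 CPM). The list also held genes of tissues other than brain: the secretory proteins Mucl2 (7 of 10 and 2 of 51) and Bpifa2 (6 of 10 and 1 of 51), growth hormone Gh (6 of 10 and 1 of 51) and the muscle giant Ttn (10 of 10 and 17 of 51). These were picked from the order by what they are. Genes ranked above Mucl2 also included Zscan26 (rank 5), Sh3pxd2a (rank 10) and Ahnak (rank 6). Ahnak was lower by level in series 21S2, at 28.2 CPM and 72.7 CPM in the others. In series 21S, Col1a1, Spp1, S100a9, S100a8, Mucl2, Bpifa2 and Gh were not read in any of the 6 libraries. The library with the least globin, 21S2_7, had Col1a1 at 574 CPM but no read of S100a8, S100a9, Mucl2, Bpifa2 or Gh.

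**Figure D5:**
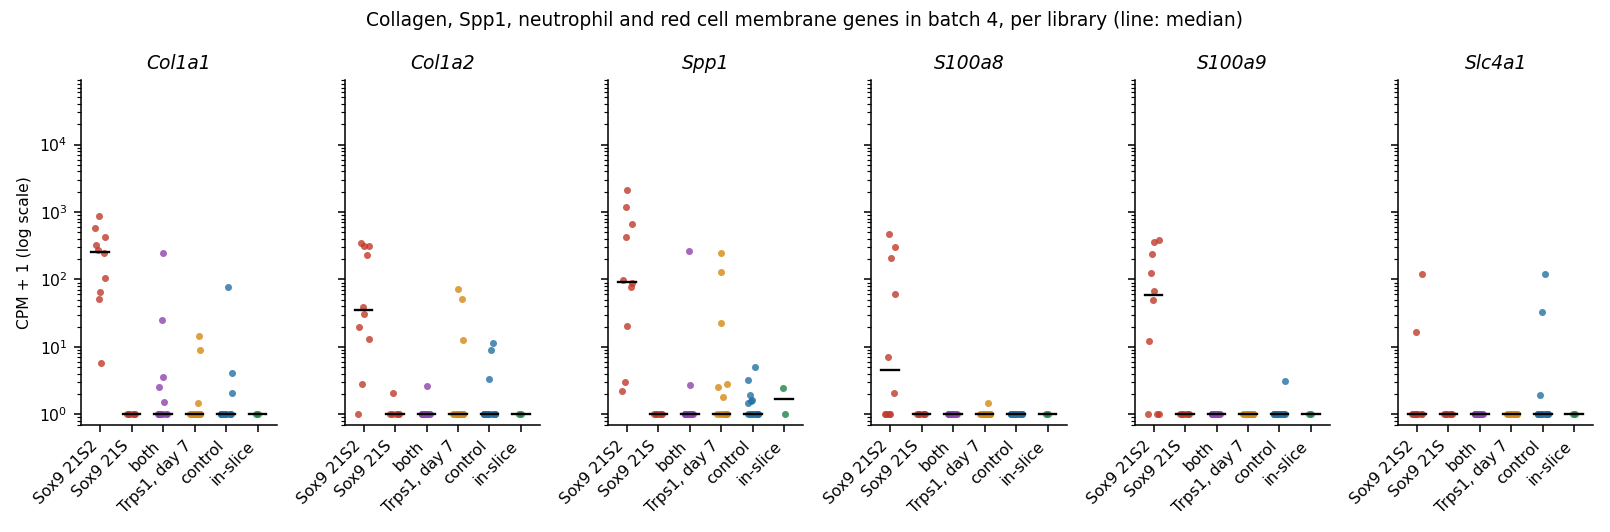
Levels of Col1a1, Col1a2, Spp1, S100a8, S100a9 and Slc4a1 (CPM + 1, log scale) in every batch 4 library, by pool, with a line at the median. Col1a1 and Spp1 are read in 10 of 10 series 21S2 libraries and in none of the 6 of series 21S, and Slc4a1 in 2 of 10.

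The column headers of batch 4 carry a pair of short tags per library. The series 21S2 libraries carried 2 first tags. One, on 6 of them (600.2 to 42256 CPM of globin), was on no other library. The other, on 4 of them (7415 to 36418 CPM), was also on 3 libraries of cells with both gRNAs, which held 305, 1136 and 1478 CPM of globin. The 6 series 21S libraries had a first tag of their own. The 48 other libraries with another first tag ran from 0 to 1603 CPM with a median of 25.4 CPM, and 4 of them reached 300 CPM. For the second tag, the 39 libraries that shared one with series 21S2 had a median of 24.99 CPM, with 4 at 300 CPM or more, and the 12 that shared none had a median of 33.9 CPM, with 3 at 300 CPM or more. The sources used here do not say whether libraries with a shared tag were prepared or sequenced together, and the part of the tag in these levels was not tested.

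In batch 5, cells without a gRNA held the most globin. The summed level was 44.7 CPM (41.6 to 48.0) with the Sox9 gRNA, 13.5 CPM (12.163 to 15.004) with the Trps1 gRNA and 88.0 CPM (83.7 to 92.5) without a gRNA. Per cell the values ran from 0 to 277 CPM with a median of 46.6 in Sox9 gRNA cells, from 0 to 96.6 CPM with a median of 1.84 in Trps1 gRNA cells, and from 5.77 to 182 CPM with a median of 81.6 in cells without a gRNA. All 3 ranges overlapped, and the medians stood in the same order as the pooled levels. Levels also differed by first header tag. Cells without a gRNA had tag medians of 79.5 CPM (8 cells), 144 CPM (7 cells) and 36.3 CPM (8 cells). Sox9 gRNA cells had tag medians of 39.1 CPM (4 cells), 39.8 CPM (8 cells) and 32.6 CPM (8 cells). The 1 remaining Sox9 gRNA cell, at 277 CPM, shared its tag with the cells without a gRNA at 144 CPM. The part of the tag in these levels was not tested. A read was found in 20 of 21 and 15 of 30 of the gRNA cells and in 23 of 23 cells without a gRNA, and after thinning in 18 of 21 and 13 of 30, against 22 of 23. The log2 ratio to cells without a gRNA was -0.90 for the Sox9 gRNA and -2.33 for the Trps1 gRNA, 2 comparisons that share the cells without a gRNA.

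Hbb-bs was at 30.97 CPM in Sox9 gRNA cells and 6.01 CPM in Trps1 gRNA cells of batch 5, against 47.1 CPM in cells without a gRNA. Hba-a1 was at 8.14 and 4.84 CPM in the gRNA cells, against 31.1 CPM without a gRNA, and was read in 9 of 21 and 6 of 30 cells, against 21 of 23. Hba-a2 and Hbb-bt stayed at or below 5.05 CPM in these 3 pools. Of 3 members that passed the filter, 1 was lower with the Sox9 gRNA (Hba-a1) and 2 with the Trps1 gRNA (Hba-a1 and Hbb-bs), where 20.5% and 14.3% of genes were as much lower. Alas2 was not read in Sox9 gRNA cells or cells without a gRNA and had 2 reads in 1 Trps1 gRNA cell. The Trps1 gRNA cells fell into title series at 22.01 CPM (21T), 12.96 CPM (21T2) and 10.4 CPM (21T3), and the 7 cells that share 1 first header tag in series 21T3 all had no globin read. The 5 in-slice controls of batch 5 held 126 CPM, 9.52 CPM and, in 3 of them, no globin read.

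Endothelial markers had a median summed level of 31.8 CPM per Sox9 gRNA cell, 1.56 CPM per Trps1 gRNA cell and 687 CPM per cell without a gRNA in batch 5, with 1.35 CPM in the in-slice controls. Slco1c1, a thyroid hormone transporter that astrocytes also make, was at 179 CPM in Sox9 gRNA cells, 143 CPM in Trps1 gRNA cells and 690.5 CPM in cells without a gRNA. The highest Trps1 gRNA cell summed to 7843 CPM over the list. Pecam1 was not read in cells without a gRNA, and Cldn5 and Cdh5 were at 0.511 and 0.738 CPM there. In Trps1 gRNA cells 10 of 11 tested endothelial genes were higher than without a gRNA, among them Cldn5 at 86.4 CPM, read in 5 of 30 cells. Microglia markers were higher in both gRNA pools (10 of 10 each), at 6628 and 4809 CPM in Sox9 and Trps1 gRNA cells, against 221 CPM without a gRNA. Their part in the globin levels was not tested.

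Among the related genes of batch 5, haem synthesis had 1 higher and 4 lower of 12 with the Sox9 gRNA, and 3 higher and 2 lower of 12 with the Trps1 gRNA. The red cell list had 2 higher and 2 lower of 12, and 3 higher and 1 lower of 12. Both lists thus held genes in both directions in each comparison. Iron handling had 9 higher and 3 lower of 15, and 7 higher and 1 lower of 15, where 24.3% and 30.3% of all genes were higher. Fth1 was at 5424 CPM in Sox9 gRNA cells and 5626 CPM in Trps1 gRNA cells, against 1831 CPM without a gRNA, and Trf at 1203 and 532 CPM, against 33.8 CPM. Of the other globin genes, Cygb was at 21.5 and 72.1 CPM in Sox9 and Trps1 gRNA cells and 28.05 CPM without a gRNA.

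In batch 2 the cells with both gRNAs at day 21 had 80.3 CPM of globin (76.5 to 84.2) and control gRNA cells of the same day 0.736 CPM, a log2 ratio of 3.89. A read was found in 5 of 8 cells with both gRNAs and 1 of 7 control gRNA cells. The 3 highest cells with both gRNAs held 563, 111 and 93.7 CPM. Without the highest cell of each pool the ratio was 2.59. Hbb-bs was at 42.6 CPM, Hba-a1 at 27.5 CPM and Hba-a2 at 10.2 CPM with both gRNAs, and none of these 3 was read in the control gRNA cells of day 21. They were the members that passed the filter and did so through the cells with both gRNAs alone, which puts them past the threshold by construction. Of 9180 genes tested, 33.9% were as much higher and 41.7% as much lower. The control gRNA cells of day 7 had 12.2 CPM, from 3 of 8 cells, the highest at 107 CPM. The single in-slice control of batch 2 had no globin read.

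Batches 1 and 3 held little globin. In batch 1 it was at 0.55 CPM with both gRNAs (2 of 4 cells), not read in the 10 control gRNA cells, which allows up to 0.27 CPM, and at 4.52 CPM in cells without a gRNA (5 of 31 cells), where Sample45 held 107 CPM, Sample19 8.87 CPM and Sample36 8.23 CPM. The batch 1 table keeps reads that map to several places in a row of their own, with 17.7% of all its counts, so reads shared by a chain pair may be missing there. In batch 3 the level was 5.66 CPM with both gRNAs, all from 1 of 14 cells at 125 CPM, 8.62 CPM with the Sox9 gRNA (8 of 21 cells, highest 61.1 CPM), and 3.34 CPM without a gRNA (3 of 6 cells, highest 63.7 CPM from 6 reads). None of the 4 in-slice controls of batch 3 had a globin read.

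The genes whose level followed the summed globin chains most closely did so weakly. Over 7839 genes, the mean of the rank correlations within the 5 batches ran from -0.28 to 0.33 across 242 astrocytes. The 10 highest that are no members were Mir6236 (0.33), Grin2c (0.25), mt-Rnr2 (0.24), Mfge8 (0.23), Vegfa (0.23), Sdc2 (0.22), Plcb4 (0.21), Gm10800 (0.21), Gm42826 (0.20) and Mpp7 (0.20). The points share library depth and batch, and values of this size in sparse counts are given as a description only.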

How the data were processed

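Values are raw counts of reads per gene, deposited by the authors as 1 table per batch. The submitters' processing notes list RSEM 1.3.0 and STAR 2.6.0a beside mm10 and GRCm38, without saying what each did, and the sources used here do not state how strand was handled. Rows naming no gene were left out (75.6% of counts in batch 1, 22.3% in batch 2, under 1% elsewhere). Counts were summed per gRNA, day and batch, and given as CPM with exact Poisson intervals. Shares of cells have exact Clopper-Pearson limits. A log2 ratio compares CPM + 5 between pools, and a gene counts as past the threshold at 1 or -1, over genes at 5 CPM or more in the higher pool. No test was run, because the labels name no animal. A gene without a read is limited to 3 counts. Thinning drew 100000 reads per library. The pool ratio step was tested on simulated data.

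The 5 genes, the lists and the alternatives were chosen with earlier results of these data known. The text names the 5 genes, up to 6 genes per list by level or ratio, defining markers at or near 0, the 10 genes of highest likeness and the 3 highest libraries per batch. The split by title series, the header tags and the ranking of series 21S2 genes were chosen after seeing the data. Coordinates come from GENCODE M21, whose build, GRCm38, is the one in the processing notes. Python 3.11.15, numpy 2.4.6, scipy 1.17.1, pandas 2.3.3 and matplotlib 3.10.9 were used.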

Additional observations from a re-analysis of the deposited data

Results flagged for a closer look

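In 8 groups of 4 to 10 samples, 48 combinations of a group and a gene (or the globin sum) were looked at for a sample far from the others, and 16 had one, each the highest of its group. A chance rate of about 1 in 20 would hold for normally distributed values only. Here 1 library with reads among libraries at 0 is flagged whatever its level, so the 16 are not set against that rate. In 15 of the 16 every other sample of the group was at 0, so these are single libraries with reads in groups without any.

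In batch 1, the control gRNA cell Sample63 held 25.05 CPM of Alas2. The batch 2 cell 2410 (control gRNA, day 21) had Hbb-bt at 4.9 CPM, and its globin sum was therefore also 4.9 CPM. At day 7 of batch 2, among cells of the control gRNA, 2303 held 36.4 CPM of Hba-a1, 18.8 CPM of Hbb-bs and 52.0 CPM of Hbb-bt, 2302 held 29.5 CPM of Hba-a2 and 2307 held 3.44 CPM of Alas2. For Hbb-bs in that group 1 other cell was at 0.791 CPM. In batch 2 cell 2517, with both gRNAs, Hba-a2 was at 99.7 CPM.

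In batch 3, cells without a gRNA had 3 such values: 3.2 CPM of Hba-a2 in AG4_b3, from 4 reads, 63.7 CPM of Hbb-bs in AG6_b3, from 6 reads, and 52.5 CPM of Hbb-bt in AG7_b3, from 1 read. Of the batch 5 in-slice controls, b5_21S_22 held 39.0 CPM of Hba-a1, 25.02 CPM of Hba-a2 and 62.0 CPM of Hbb-bs, and 21T2_24 held 9.52 CPM of Hbb-bt.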

How the results depend on the processing

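The values are log2 ratios of the summed chains. Cells with both gRNAs against control gRNA cells in batch 2 (3.89) gave 2.59 without the highest cell of each pool, 4.20 from the mean of per-cell CPM, 3.46 from mean log2(CPM + 1), 5.55 with a pseudocount of 1 and 4.10 with median-of-ratios scaling. For the Sox9 gRNA in batch 4 (7.74) the same settings gave 7.96, 8.24, 6.77, 7.88 and 8.45, while series 21S alone gave 0.64 (-0.71 with library 21S_10 left out, a setting chosen after seeing the data) and series 21S2 alone 8.40. For both gRNAs in batch 4 (2.93) they gave 3.20, 3.48, 3.02, 3.05 and 3.13. The Trps1 gRNA of day 7 in batch 4 (0.81) gave 0.16, 2.1175, 0.90, 0.87 and 0.84, with series 7T2, a single cell, at -3.16. In batch 5 the Sox9 gRNA (-0.90) gave -0.91, -0.65, -1.19, -0.96 and -1.06, and the Trps1 gRNA (-2.33) gave -2.39, -2.15, -3.71, -2.61 and -2.72, with series 21T at -1.78 and 21T3 at -2.60. Against in-slice controls, the Trps1 gRNA of batch 5 (-1.11) turned to 0.93 without the highest libraries, 0.20 from mean log2 values, and 0.78 and 1.89 against in-slice series 21T2 and 21T3 alone. Series 21S against the batch 4 in-slice controls turned to -0.41. Without the highest library, Hba-a1 against in-slice controls turned to 0.56 for the Trps1 gRNA and 0.48 for the control gRNA of batch 4. The cause was not tested beyond the libraries left out. Leaving out libraries under 100000 reads, or mitochondrial genes and the 5 members from the totals, moved none of the 6 comparisons between pools of cells across the threshold. Of all alternative values of summed ratios, 119 stayed within the counting interval of the main value, 115 lay outside it, and 6 whose main value was past the threshold changed sign. The 115 include sign changes of ratios that were not past it, such as -3.16 for series 7T2. No paired analysis was possible because the labels give no replicate numbers that pair cells across groups. With 1 pool per group, depth sets counting error only, and the variation between animals is unknown.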
